A study of Homo sapiens with 3 samples.

Results

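FGFR2 and FGFR3, both receptor tyrosine kinases for fibroblast growth factors, had the highest ratios to the parental line among the FGF receptors of osimertinib-resistant H1975 cells, and each of the resistant lines had its own order. FGFR2 had ratios of 9.06 in OR1 and 3.36 in OR2, while FGFR3 had ratios of 1.83 in OR1 and 5.32 in OR2. For the ligand gene FGF1 the ratio was 6.36 in OR1 but 0.981 in OR2. The ligand gene FGF5 was well above background in H1975 and in neither resistant line. The genes described are 10 members of the FGF system out of 43316 genes on the array, 5 receptors (FGFR1, FGFR2, FGFR3, FGFR4 and FGFRL1) and 5 ligand and carrier genes (FGF1, FGF2, FGF5, FGF9 and FGFBP1). They were taken by gene symbol with all of their 21 probes, whatever the values of these were.

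H1975 is a human non-small cell lung cancer line with mutated EGFR that is sensitive to osimertinib, an inhibitor of mutant EGFR. OR1 and OR2 are clones made from it independently, by raising the dose of osimertinib in steps to 2 μmol/L, and their resistance is stable without the drug. The 3 lines grew in RPMI medium with fetal bovine serum, and whether osimertinib was present when RNA was taken is not given in the sources used here. The RNA of each line was measured on 1 Agilent single-colour array, so that a resistant state, a clone and an array cannot be told apart and no ratio of a single array to another was tested.

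Fibroblast growth factors are secreted proteins that bind their receptors together with heparan sulfate on the cell surface. Binding brings receptors together, and their kinase domains then signal through the adaptor FRS2 to the ERK and AKT pathways, whose feedback genes include the Sprouty genes and DUSP6. In lung cancer, FGF receptors are known as an alternative source of these signals when EGFR is inhibited. Splicing of the third immunoglobulin domain of FGFR1, FGFR2 and FGFR3 gives an epithelial IIIb form and a mesenchymal IIIc form with different ligands, and ESRP1 and ESRP2 are the epithelial splicing factors that favour the IIIb form of FGFR2.

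The probes of the array are 60 bases long, and a value speaks only for the stretch of mRNA that its probe reads. The probes below are those with the largest ratios, the discordant FGF1 pair and the FGFR4 probe, each given from its 5′ end. For FGFR2, the coding probe lies near the end of the kinase domain (hg19 chr10:123243217-123243276, minus strand) and the brightest probe lies downstream of it, after 5373 bases of the genome and in the 3′ untranslated part. The coordinates given for the brightest probe (chr10:123237830-123237843, minus strand) span only part of its 60 bases, and the 5373 bases are counted from them. The FGFR4 probe (chr5:176523121-176523180, plus strand) covers the activation loop of the kinase, and its capitals mark the codons of the Asp-Phe-Gly motif. The FGF5 probe that gave signal reads coding sequence (chr4:81188093-81188152, plus strand). Of the probes not known here to read coding sequence, only the opening 30 bases are shown.
FGFR2, coding probe: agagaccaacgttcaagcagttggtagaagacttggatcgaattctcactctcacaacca
FGFR4: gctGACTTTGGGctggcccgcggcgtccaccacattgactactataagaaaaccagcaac
FGF5, coding probe: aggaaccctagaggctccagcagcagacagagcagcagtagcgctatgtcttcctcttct
FGFR2, brightest probe, opening: cagctggccttctgcttctgagttgcacat
FGFR3, brightest probe, opening: tgctacctttcaaagcttggagggaagccg
FGF1, brightest probe, opening: cagtctcttctgattaaagagatctgttct
FGF1, upstream probe, opening: ttttctgggaggacactcccttctgatggt
FGFBP1, opening: ggaatttgccttatttttcttggatgcgat

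The promoters of FGFR2 and FGFR3, the receptors with a ratio of at least 2, are shown because both are rich in the dinucleotide CG. The 250 bases before the outermost of 5 RefSeq starts of FGFR2 (GRCh38.p14 chr10:121598445-121598694, minus strand) hold 42 CG and are 78.4% G or C. Those before the RefSeq start of FGFR3 (GRCh38.p14 chr4:1793043-1793292, plus strand) hold 40 CG and are 86.8% G or C. Over 35116 RefSeq promoters of this length, 93.9% hold at least 1 CG (a word that reads alike on both strands), the median is 11 CG and 58% G or C, and only 1.38% hold as many CG as FGFR2 and 2.16% as many as FGFR3. The other 4 listed starts of FGFR2 have 3 to 7 CG, and FGFBP1 has 2. Being above the median is not particular to these receptors. FGF2, without signal on any array, has 33 CG, and FGFRL1, not called, has 21. FGF5, called lower, has 27 before its first listed start, and FGFR4, not called, has 24 before its first. Capitals mark CG below, and DNA methylation was not measured here.
FGFR2 promoter: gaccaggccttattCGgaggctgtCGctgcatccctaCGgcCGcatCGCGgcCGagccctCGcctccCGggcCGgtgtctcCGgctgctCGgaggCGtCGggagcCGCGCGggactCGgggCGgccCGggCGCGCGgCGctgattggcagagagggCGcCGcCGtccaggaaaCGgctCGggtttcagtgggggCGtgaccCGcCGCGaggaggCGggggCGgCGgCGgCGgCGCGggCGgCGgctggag
FGFR3 promoter: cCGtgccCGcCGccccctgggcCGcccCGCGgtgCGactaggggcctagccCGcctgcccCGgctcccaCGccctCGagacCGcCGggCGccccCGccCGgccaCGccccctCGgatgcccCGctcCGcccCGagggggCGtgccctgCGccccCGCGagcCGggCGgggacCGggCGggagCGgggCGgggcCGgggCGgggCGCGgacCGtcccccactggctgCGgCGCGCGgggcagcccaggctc

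Each intensity below is scaled so that the 75th percentile of its array is 100. Levels are compared between lines for the same probe, save in the alternative that takes the median over the probes of a gene. A gene stands by its brightest probe, and it was called higher at a ratio of at least 2 and lower at a ratio of at most 0.5, the ratios of the study's methods. Where only the numerator or only the denominator of a ratio was well above background, the dim line was given a stand-in value. This was the higher of its own scaled intensity and the lowest that passed on its array (7.98 for H1975, 8.26 for OR1, 7.80 for OR2). Such ratios are bounds, marked by "at least" or "at most" beside them. The technical SD given with a ratio is the error of the scanner software carried into the log2 ratio, and it does not cover variation between cultures. Its median was 0.20 over the brightest probes of genes well above background on all 3 arrays. For dim probes it was larger, as with 1.40 for the FGFR2 coding probe in OR1 over H1975. Of the 21 member probes, 9 were well above background on all 3 arrays, 4 on some of them and 8 on none. By the brightest probe, 8 of the 10 genes passed the background criterion somewhere, against 22417 of all 43316 genes.

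**Figure D1:**
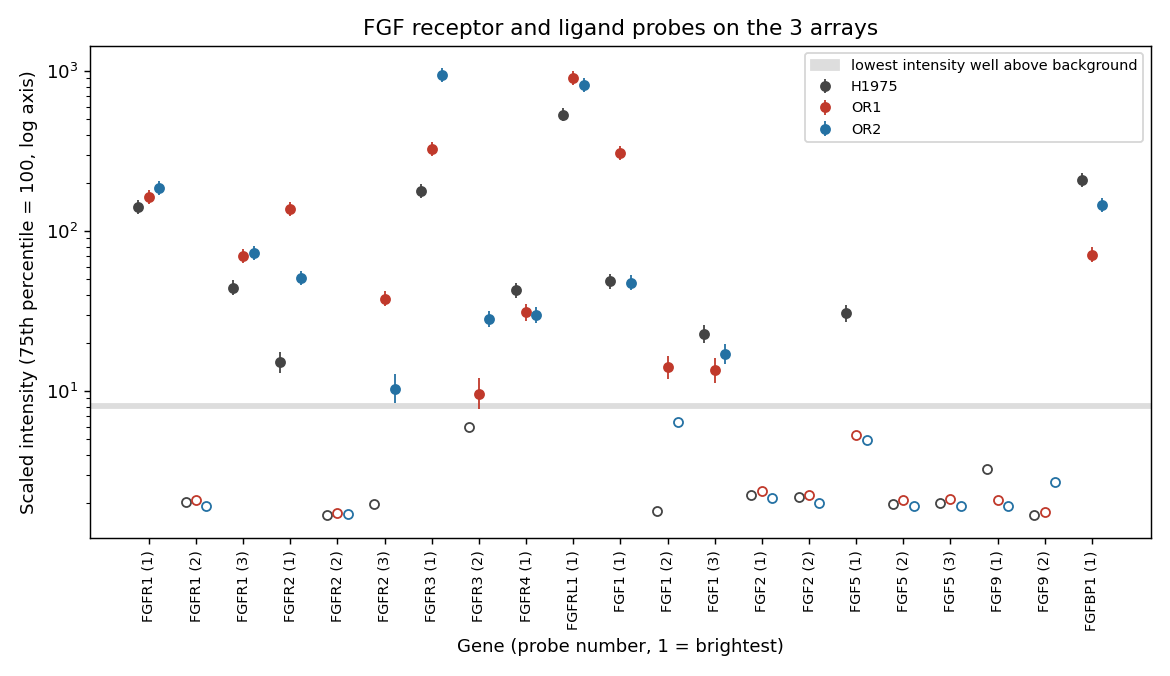
Scaled intensity (log axis) of every probe of the 10 FGF genes in H1975, OR1 and OR2, with bars of 1 technical SD for filled points. Open points were not well above background, and the grey band spans the lowest intensities well above background on the 3 arrays. FGFR2 probe 1 rises from 15.1 in H1975 to 137 in OR1, FGFR3 probe 1 reaches 943 in OR2, and both FGF2 and both FGF9 probes are open on every array.

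The brightest FGFR2 probe measured 15.1 in H1975, against 137 in OR1 and 50.8 in OR2. H1975 was lowest and OR1 highest, the ratios to H1975 being 9.06 for OR1 and 3.36 for OR2 with technical SDs of 0.26 on the log2 scale. Between the resistant lines the ratio of OR2 to OR1 was 0.370, with a technical SD of 0.21. FGFR2 binds FGF1, FGF7 and FGF10 in its epithelial form, and it was the only member called higher in both lines. The coding probe at the end of the kinase gave the same order. It was below the background criterion in H1975 (1.96) and measured 37.9 in OR1 and 10.4 in OR2. OR1 was thus at least 4.75 times and OR2 at least 1.30 times as high as H1975, and OR2 to OR1 was 0.274. The third FGFR2 probe, on an Ensembl transcript, was at background in all 3 lines. Neither probe with signal lies in the exons of the third immunoglobulin domain, so the IIIb and IIIc forms were not separated.

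FGFR3, a receptor for FGF1 and FGF9, was highest in OR2 by both of its probes. The brightest probe (hg19 chr4:1810363-1810422, plus strand) measured 177 in H1975, against 325 in OR1 and 943 in OR2. The ratio was 1.83 for OR1, 5.32 for OR2 and 2.90 for OR2 to OR1, and the technical SD was 0.20 (log2) for each of them. The other probe, upstream by 1249 bases, measured 9.61 in OR1 and 28.3 in OR2, and was below the background criterion in H1975 (5.98). It bounded the ratio from below at 1.20 for OR1 and 3.55 for OR2, and its ratio of OR2 to OR1, 2.95, was within the technical SD of that of the brightest probe. By the brightest probe, OR1 thus stayed under the ratio of 2 for FGFR3, though within 1 technical SD of it, and OR2 passed it. The lower bound from the other probe does not show on which side of 2 OR1 lay.

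FGFR4, the main receptor of the FGF19 group in liver, was measured by 1 probe at 42.7 in H1975, 31.1 in OR1 and 29.96 in OR2. H1975 was highest, and the ratios of 0.728 and 0.702 (technical SD 0.23 on the log2 scale in each line) did not reach 0.5. OR1 and OR2 differed from each other by less than the technical SD, with a ratio of 0.965. FGFRL1, a receptor that binds FGFs and lacks the kinase domain, measured 536 in H1975, against 903 in OR1 and 822 in OR2. Both resistant lines lay above H1975, with ratios of 1.68 and 1.54 (technical SD 0.20), and neither was called.

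FGFR1 is the receptor best known for FGF2 signalling in mesenchymal cells and for amplification in squamous lung cancer. Its brightest probe measured 141 in H1975, against 163 in OR1 and 187 in OR2, with ratios of 1.16 and 1.33 (technical SD 0.21 on the log2 scale). With spike-in probes in place of the 75th percentile as the scale, the ratio in OR1 turned to 0.766. A second probe, near the start of the transcript, measured 44.3 in H1975, against 69.7 in OR1 and 72.7 in OR2, with ratios of 1.57 and 1.64. The third FGFR1 probe was at background in all 3 lines. No FGFR1 value reached a ratio of 2.

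FGF1 is a ligand that binds all 4 kinase receptors, and it is transcribed from several alternative starts, of which RefSeq lists 4. Its brightest probe (hg19 chr5:141974812-141974871, minus strand) measured 48.5 in H1975, against 309 in OR1 and 47.6 in OR2. OR1 stood apart from the other lines, with a ratio of 6.36 to H1975, while OR2 differed from H1975 by less than the technical SD of 0.22 on the log2 scale, with a ratio of 0.981. The ratio of OR2 to OR1 was 0.154. The next probe downstream had 1.78 in H1975 and 6.38 in OR2, neither well above background, and 14.1 in OR1, which gave at least 1.76 in OR1 and at most 0.555 for OR2 to OR1. The upstream probe lies 102405 bases away on a transcript of another start (chr5:142077277-142077336, minus strand), and there OR1 measured lowest. This probe had 22.9 in H1975, against 13.5 in OR1 and 17.1 in OR2, with ratios of 0.592 and 0.747. The technical SDs were 0.32 and 0.29 on the log2 scale. OR1 and OR2 differed there by less than the technical SD of 0.34, with a ratio of OR2 to OR1 of 1.26. With normexp background correction, an alternative given below, the ratios to H1975 were 0.910 in OR1 and 0.891 in OR2. The probes of FGF1 therefore disagreed in direction for OR1, and the high value belongs to the probes at the downstream end.

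FGF5, a ligand of FGFR1 and FGFR2 known for ending the growth phase of the hair follicle, was the only member called lower in both lines. Its coding probe measured 30.6 in H1975, while the resistant lines were below the background criterion (5.31 for OR1, 4.98 for OR2). These lines were thus at most 0.270 and 0.255 times as high as H1975. The other FGF5 probes lie 19653 bases and more downstream and are assigned to another transcript. They were not well above background on any array, H1975 included, so that the call rests on a single probe. FGFBP1, a secreted carrier that releases FGFs from heparan sulfate, measured 209 in H1975, against 71.4 in OR1 and 146 in OR2. OR1 was lowest, with a ratio of 0.342 (technical SD 0.21 on the log2 scale), OR2 had 0.700, and OR2 to OR1 was 2.05. FGF2, the best known ligand of FGFR1, and FGF9, a ligand of FGFR3, were not well above background on any array by either of their probes, with scaled intensities of 1.68 to 3.25. The FGF2 probes share 46 bases and so are not separate measurements. They are 21.7% and 30% G or C, below the 5th percentile of 35% over all non-control probes with a sequence. Whether this lowered their signal was not tested.

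**Figure D2:**
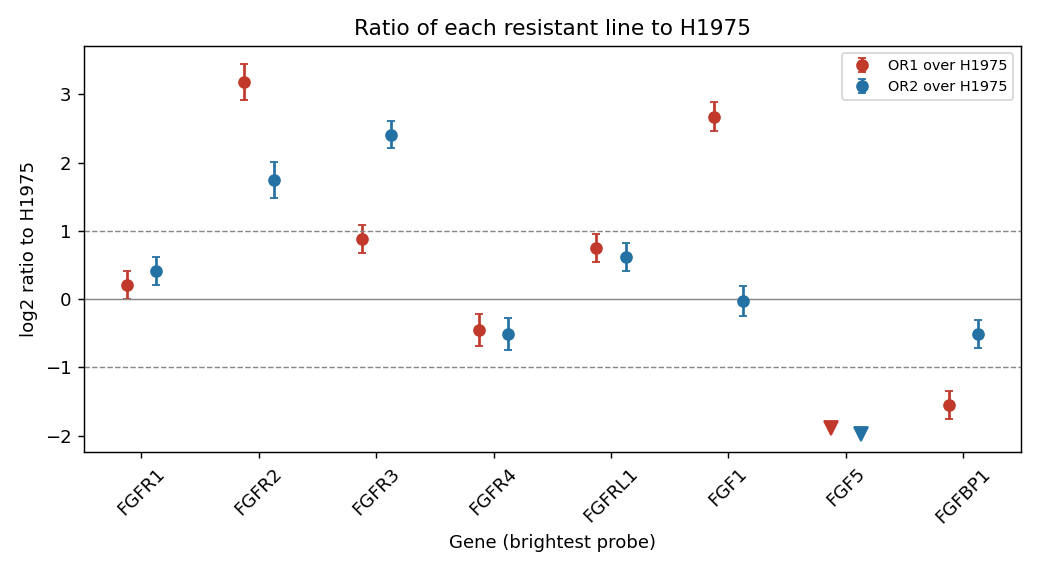
log2 ratio of OR1 and of OR2 to H1975 for the 8 FGF genes that had a ratio, by the brightest probe. Bars are 1 technical SD, triangles are upper bounds where the resistant line was not well above background, and dashed lines mark ratios of 2 and 0.5. FGFR2 lies above the upper line in both OR lines, FGFR3 only in OR2 (5.32) and FGF1 only in OR1 (6.36), with 1 array per line.

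Counted over the members with a ratio, OR1 had 2 of 8 called higher (FGFR2 and FGF1), where 9.17% of all 21868 genes with a ratio were called. It had 2 of 8 called lower (FGF5 and FGFBP1), against 9.58% of all genes. OR2 had 2 of 8 called higher (FGFR2 and FGFR3), against 7.72% of 21688 genes, and 1 of 8 called lower (FGF5), against 8.70%. In both lines, 1 member was higher (FGFR2) and 1 was lower (FGF5), where 5.09% and 6.32% of the 22417 genes above background anywhere were called. Both counts use the same H1975 array. Directly between the resistant lines, OR2 had 2 of 7 members higher than OR1 (FGFR3 and FGFBP1) and 2 of 7 lower (FGFR2 and FGF1), against 2.48% and 2.89% of 21451 genes. With 7 or 8 genes, 1 gene more or less changes each of these shares by over 10 percentage points. The median log2 ratio of the 5 receptors was 0.75 in OR1 and 0.62 in OR2, which is the value of FGFRL1, not called. That of the 3 ligand and carrier genes with a ratio was -1.55 and -0.52, which is the value of the carrier FGFBP1. The 2 ligands among them went apart, FGF1 with 2.67 and -0.03 and FGF5 with bounds of at most -1.89 and at most -1.97. Over all genes the median was 0.04 in OR1 and -0.06 in OR2.

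Among the other 18 FGF ligand genes, 5 passed the background criterion in some line and none was called higher in either line. The intracellular FGF homologue FGF13, which acts on sodium channels and microtubules, measured 328 in H1975, against 79.5 in OR1 and 121 in OR2, with ratios of 0.243 and 0.369. FGF7, a stromal ligand of the epithelial FGFR2 form, had 27.1, 10.3 and 25.2 in the same order and was lower in OR1 only (ratio 0.378 against 0.930 in OR2). FGF11, another intracellular homologue, was called lower in OR2 with 0.461 and had 0.894 in OR1. FGF10 and the endocrine FGF19, FGF21 and FGF23 were at background in all 3 lines. The median log2 ratio was -0.81 over 4 genes in OR1 and -0.24 over 5 in OR2.

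Of 13 co-receptor and carrier genes, 8 passed the background criterion in some line, and the median log2 ratio was 0.15 for OR1 and -0.06 for OR2. In both lines 2 were called higher and 2 lower. HSPG2, which encodes the heparan sulfate proteoglycan perlecan, measured 1908 in H1975, against 5498 in OR1 and 4559 in OR2, with ratios of 2.88 and 2.39. The carrier FGFBP3, dim in H1975, gave at least 2.42 and at least 2.03. FLRT1, whose family binds FGF receptors, was called in OR1 only, at 2.23 against 1.33 in OR2. Under spike-in scaling the ratios in OR1 were 1.91 for HSPG2, at least 1.60 for FGFBP3 and 1.48 for FLRT1. SDC1, the epithelial syndecan, measured 5873 in H1975, against 2086 in OR1 and 2406 in OR2, with ratios of 0.355 and 0.410. FLRT2 had ratios of 0.219 and 0.215. The Klotho co-receptors of the endocrine FGFs, KL and KLB, were not well above background on any array.

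None of the 10 receptor adaptor genes was called against H1975 in either line, and 9 of them had a ratio. FRS2, the adaptor bound by FGF receptors themselves, measured 54.0 in H1975, against 76.0 in OR1 and 64.0 in OR2, with ratios of 1.41 and 1.18, and its OR1 ratio was 0.931 under spike-in scaling. The median log2 ratio of the adaptors was 0.17 in OR1 and -0.11 in OR2.

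The 13 genes of feedback and output, induced through ERK by FGF receptors and by EGFR alike, all passed the background criterion in some line. DUSP6, the phosphatase that removes the activating phosphates of ERK, was the only 1 called in both lines. It measured 173 in H1975, against 26.2 in OR1 and 37.2 in OR2, with ratios of 0.151 and 0.214. ETV4, an ETS factor downstream of ERK, was called lower in OR2 with 0.474 and had 0.618 in OR1. SPRY2, a feedback inhibitor of receptor tyrosine kinases, was called higher in OR2 with 2.13, and had 1.41 in OR1, or 0.933 there under spike-in scaling. The other 10 genes were not called against H1975 in either line. Under spike-in scaling, 6 genes of the list had ratios of at most 0.5 in OR1, namely SPRY4, SPRED2, SPRED3, ETV4 and EGR1 besides DUSP6. The median log2 ratio of the list was -0.27 in OR1 and -0.38 in OR2.

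Of the 6 splicing regulators that act on FGFR2, 2 were called lower in both lines and none higher. ESRP1 had 207 in H1975 and was not well above background in OR1 (3.64) or OR2 (1.74), with ratios of at most 0.0400 and at most 0.0377. ESRP2 measured 2372 in H1975, against 733 in OR1 and 616 in OR2, with ratios of 0.309 and 0.260. RBFOX2, PTBP1, PTBP2 and MBNL1 lay between 0.780 and 1.51. The median log2 ratio of the list was -0.23 in OR1 and 0.01 in OR2. NUDT6, the gene transcribed antisense to FGF2, measured 583 in H1975, against 1440 in OR1 and 959 in OR2, with ratios of 2.47 and 1.64 (1.63 in OR1 under spike-in scaling), and its partner FGF2 had no signal above background.

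**Figure D3:**
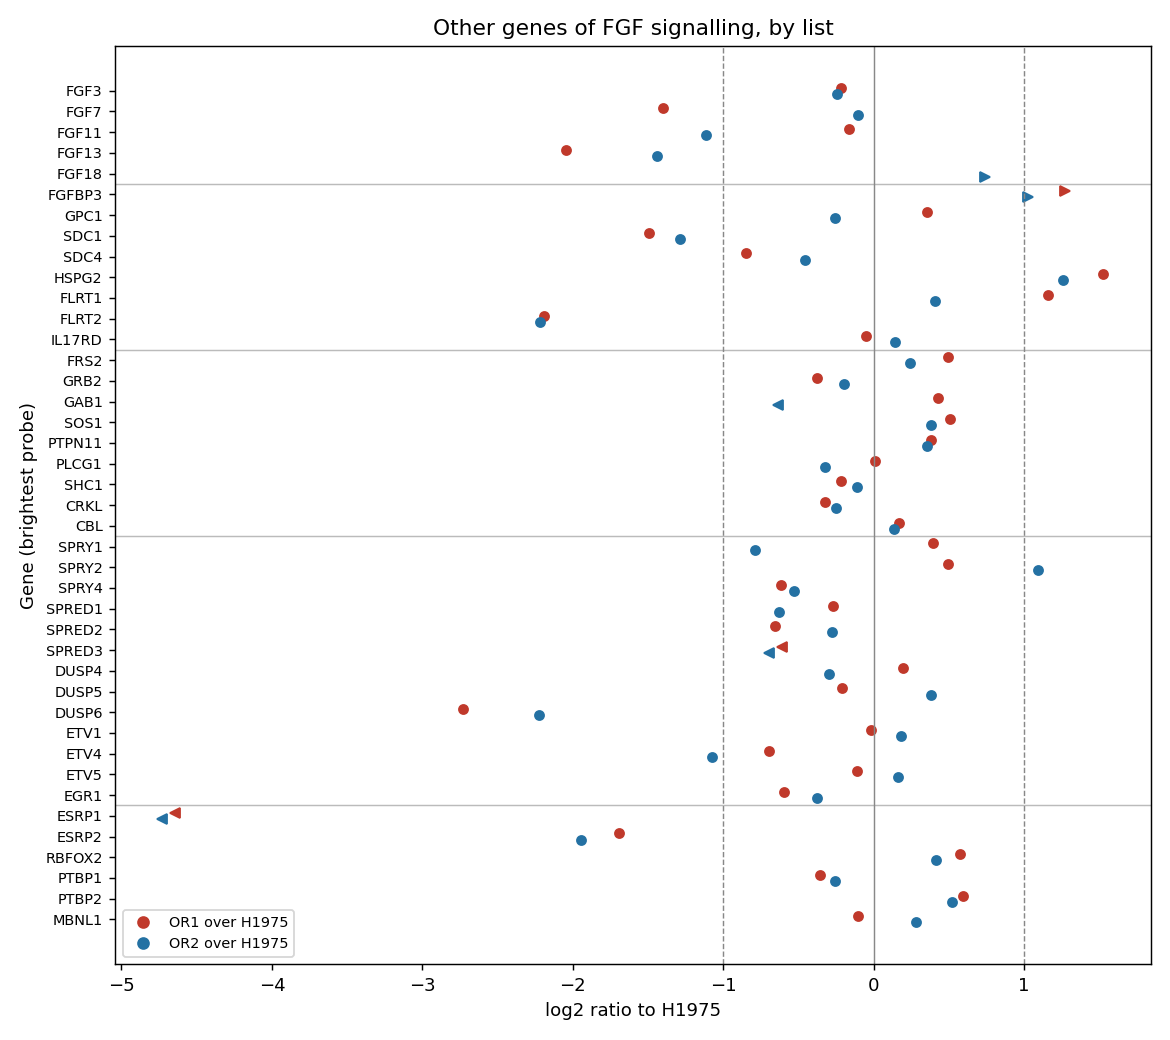
log2 ratio of OR1 and of OR2 to H1975 for each gene of 5 FGF signalling lists that had a ratio, by the brightest probe, with lists separated by grey lines (from the top, other ligands, co-receptors and carriers, adaptors, feedback and output, splicing regulators). Triangles are bounds pointing the way the true ratio may lie, and dashed lines mark ratios of 0.5 and 2. ESRP1, ESRP2, DUSP6, FLRT2, SDC1 and FGF13 lie left of the lower line in both lines, and no adaptor lies beyond either line.

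The label of an epithelial lung cancer line was checked against marker genes. All 6 epithelial markers were well above background on the 3 arrays, and KRT8 and KRT18 had ratios between 0.806 and 1.12, while EPCAM, CDH1, KRT7 and KRT19 were called lower in both resistant lines, with ratios from 0.0205 to 0.492. The call of KRT19 in OR2 was lost under other scalings, with a ratio of up to 0.574 under quantile normalization. Of the mesenchymal markers, ZEB1 had ratios of 4.74 and 5.14, VIM had 1.58 and 1.83, FN1 had 0.735 and 0.205, and CDH2 was not well above background. Of the fibroblast markers, DCN, PDGFRA and THY1 were not well above background on any array and LUM was so in OR1 only (at least 5.43). COL1A1 had ratios of 1.45 and 0.183, and COL1A2 had 0.162 and at most 0.0615. The lung markers NKX2-1 and NAPSA were above background on every array, NKX2-1 with ratios of 0.252 and 1.36, and SFTPB on none. Of the endothelial markers only PECAM1 was called (2.10 in OR1), with KDR not well above background. VWF had ratios of 0.776 and 0.927, and CDH5 had 0.664 and 1.21. Of the leukocyte markers CD14 had 4.25 and 6.56, PTPRC was not called and CD3E was not well above background. FGF1, LUM and PECAM1 were all called higher in OR1 only, PECAM1 with a ratio of 1.39 under spike-in scaling. The other fibroblast and endothelial markers were not called higher in OR1, and COL1A2 was called lower there. A part of other cells in the FGF1 value was not tested.

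The chromosomal surroundings of the members were read from the 20 nearest genes that were well above background on all 3 arrays. Around FGFR2 their median log2 ratio was 0.04 in OR1 and 0.09 in OR2, and around FGFR3 it was 0.19 and 0.12, against 3.18 and 1.75 for FGFR2 itself and 0.88 and 2.41 for FGFR3. Around FGFR2, 3 of the 20 were called higher in OR1 and 0 in OR2. Around FGFR3, 3 were called higher in OR1 and 2 in OR2. In each of these surroundings 0 were called lower in OR1 and 1 in OR2. Over all genes with a ratio, 9.17% were called higher in OR1 and 7.72% in OR2. Around FGF1 the median was -0.38 in each line. Around FGFR4 it was -0.35 and -0.49, close to the -0.46 and -0.51 of FGFR4 itself. There, 3 of the 20 neighbours were called lower in OR1 and 6 in OR2, against 9.58% and 8.70% of all genes with a ratio. DNA copy number was not measured here.

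The genes nearest to FGFR2 by Euclidean distance between pairs of log2 ratios (OR1, OR2), among 18588 other genes well above background on all 3 arrays, were lnc-NT5DC1-4 with ratios of 8.46 and 3.09, MLLT11 with 8.99 and 4.20, and ENHO with 7.29 and 3.12. The distances were 0.16, 0.33 and 0.33. To the bounds of FGF5 the nearest were AIM1 with ratios of 0.264 and 0.248, LINC01389 with 0.258 and 0.259, and ASL with 0.276 and 0.243. These likenesses rest on 3 arrays and only describe the values.

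FGFR2 in both lines and FGFR3 in OR2 kept their direction under every setting tried in which they had a value, and the size depended on the background correction. With normexp correction and an offset of 50, the ratio of FGFR2 was 3.38 in OR1 and 1.68 in OR2, that of FGF1 in OR1 was 3.85, and that of FGF5 was at most 0.743 and at most 0.675, so that neither FGFR2 nor FGF5 was then called in both lines. Of the other listed genes called against H1975, FGF7, FGFBP3, FLRT1, FLRT2, LUM and PECAM1 in OR1 also lost their calls with normexp. In OR2, FGF11, FGFBP3, SPRY2, ETV4 and FN1 lost theirs.

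**Figure D4:**
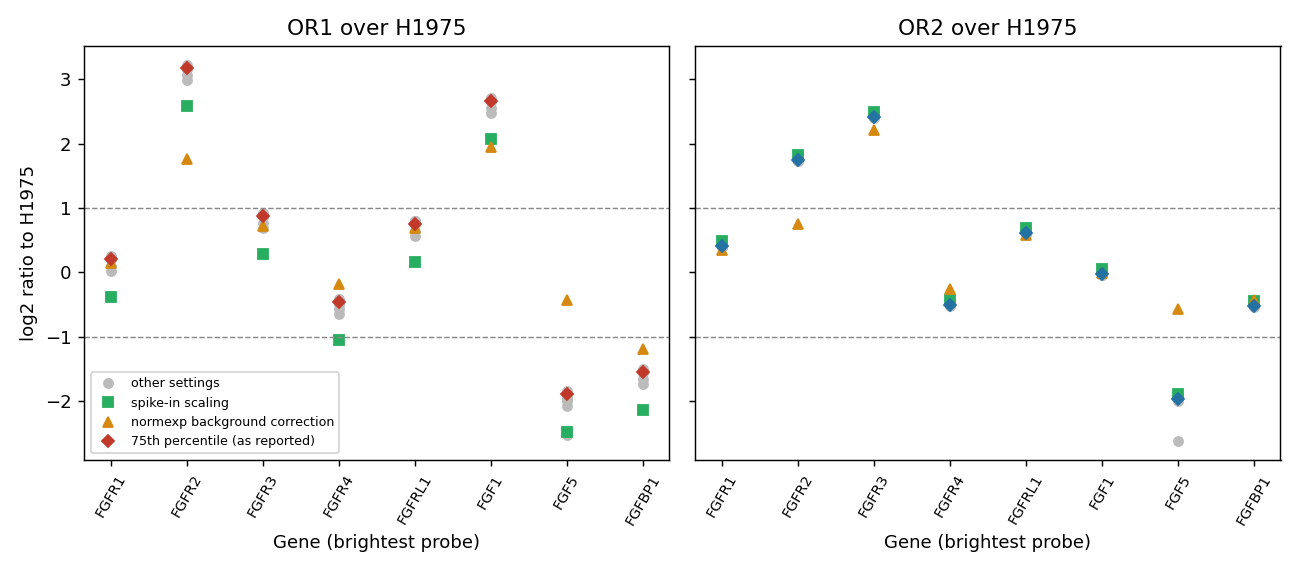
log2 ratio to H1975 of the brightest probe of 8 FGF genes in OR1 (left) and OR2 (right) under each processing setting, 1 point per setting, with dashed lines at ratios of 2 and 0.5. Diamonds are the values as reported, squares spike-in scaling, triangles normexp background correction and grey points the other settings. In OR1 spike-in scaling lies below the reported value for each gene, and normexp brings FGFR2 to 3.38 and FGF5 to at most 0.743.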

How the data were processed

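The authors amplified, labeled and hybridized RNA of H1975, OR1 and OR2 to 1 Agilent human array each, and all 3 arrays lie on the same slide. The deposited scanner files hold the processed intensity of each spot, corrected for background within its array, from Feature Extraction (9.5.1.1 in the submitters' processing notes, 10.7.1.1 in the file headers). A deposited table of normalized intensity, which differed from quantile-normalized values by a median of 0.0013 on the log2 scale, served as an alternative, and its normalization is not given in the sources used here.

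Control spots and outlier spots (45 to 61 outliers per array) were left out, repeated spots of 58200 probes were averaged as log2 intensity, and the 75th percentile of each array, an intensity of 157 for H1975, 138 for OR1 and 162 for OR2, was subtracted. Between 45.6% and 45.9% of probes were well above background, no spot was saturated, and repeated spots had a median SD of 0.052 to 0.055 on the log2 scale. The number of arrays limits the precision.

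All 10 members are named, and of the other lists the genes called in a line, at most 4 each way, with the 3 genes nearest to FGFR2 and to FGF5 in their ratios, besides examples chosen after their values were seen. The members and lists were chosen with earlier results of these data known. Probe coordinates are those of the files, on hg19. Of the 21 member probes, 19 had an accession in the RefSeq table, each with the same symbol. Promoters are RefSeq sequences of GRCh38.p14, matched for 8 members, and coordinates of the builds were not mixed.

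The alternatives were quantile, median, spike-in (7 probes) and no scaling, a percentile over probes above background, normexp, the authors' table, other filters on background, outlier or saturated spots, other rules for several probes, other thresholds, and limma with OR1 and OR2 as 2 samples. The counting was tested on simulated data. Python 3.11.15, numpy 2.4.6, pandas 2.3.3, matplotlib 3.10.9, R 4.3.3 and limma 3.58.1 were used.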

Additional observations from a re-analysis of the deposited data

Results flagged for a closer look

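FGF1 moved apart in the resistant lines. The log2 ratio of its brightest probe to H1975 was 2.67 in OR1 and -0.028 in OR2, opposite in sign, with the value in OR2 smaller than its technical SD of 0.22. With 1 array per line the difference between OR1 and OR2 was not tested.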

How the results depend on the processing

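With 1 array per line no replicate could be left out, and the slide could not be taken as a block since it holds all 3 arrays. No paired analysis was possible because each group has 1 array. As reported, 2 members were higher and 2 lower in OR1, 2 higher and 1 lower in OR2, 1 higher and 1 lower in both lines, and 2 higher and 2 lower in OR2 than in OR1. Spike-in scaling moved the median of all probes by -0.60 on the log2 scale in OR1 and 0.08 in OR2. Under it, 1 member was lower in OR2 than in OR1 (FGF1, with FGFR2 no longer called), and in OR1 FGFR4 was lower too. With normexp the counts were 1 lower in OR1, 1 higher and 0 lower in OR2, 0 higher and 0 lower in both lines, and 1 higher in OR2 than in OR1. The offset of 50 added to each signal draws ratios of dim probes toward 1 by construction. When all 3 arrays had to be above background, FGF5 dropped out by construction and 1 was lower in OR1, 0 in OR2 and 0 in both lines. With the median over a gene's probes, 1 was higher and 1 lower in OR1, 1 higher and 0 lower in OR2, 0 higher and 0 lower in both lines, and 1 lower in OR2 than in OR1. The value of FGF1 then turned to log2 ratios of -0.70 in OR1 and 0.28 for OR2 to OR1, and here the middle probe is the upstream one in H1975 and OR2 and a downstream one in OR1, so that different probes are compared. At a ratio of 1.5, 4 were higher in OR1 and 3 in both lines. At ratios of 4 and 0.25, 0 were lower in OR1, 1 higher and 0 lower in OR2, 0 higher and 0 lower in both lines, and 0 higher and 1 lower in OR2 than in OR1. The share of all genes called was not computed under these alternative settings, so the counts of members cannot be set against it there. Limma, with 1 residual degree of freedom, sets the mean of OR1 and OR2 against the lone H1975 array. At a Benjamini-Hochberg adjusted p under 0.05 it called 0 members higher and 1 lower (FGF5, whose values in OR1 and OR2 were not well above background), against 208 and 373 of 22417 genes. At an unadjusted p under 0.05 it called 1 member higher (FGFR2) and 1 lower, against 2051 and 2126 genes. Over the probes of the members, 356 of 417 alternative values differed from the reported value by less than the technical SD, 59 by more, and 2 values past the ratio of 2 or 0.5 turned (those of FGF1). Of the values short of these ratios, scaling also turned the sign of FGFR1 in OR1, FGF1 in OR2, and FGFR4 and FGFRL1 for OR2 to OR1.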

Other observations

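Besides the listed genes, 27 others carry an FGF name, 5 of them with a probe well above background somewhere. The long noncoding RNA lnc-FGFR2-2, named for its place near FGFR2, had a scaled intensity of 2.17 in H1975 and 2.07 in OR2, not well above background in either, and 33.9 in OR1. OR1 was at least 4.25 times as high as H1975, and OR2 to OR1 was at most 0.230, so that OR1, the line with the highest FGFR2, was the only line in which it gave signal. lnc-FGF10-3 had 8.30 in H1975, 28.5 in OR1 and 26.7 in OR2, with ratios of 3.44 and 3.22. lnc-FGFRL1-3 was well above background in H1975 alone (17.6) and had ratios of at most 0.470 and at most 0.444. FGFR1OP, which encodes a centrosomal protein and no receptor, had ratios of 0.739 and 0.608, and FGFR1OP2 had 1.29 and 0.853.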
